A study of Homo sapiens with 2 samples.

Results

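The miR-99, miR-100 and miR-125 family was followed in K562/ADM and K562 cells. Members were taken from the deposited table by name. The prefix, the asterisk, the arm suffix and the copy number were dropped, and each row whose stem was miR-99a, miR-99b, miR-100, miR-125a or miR-125b was kept. This gave 8 of the 934 names, which belong to 4 of the 5 stems. MiR-100 and the passenger strand of its partner MIR125B1 were not analysed here. K562 is a human chronic myelogenous leukemia line, grown in medium for which no anticancer drug was named. K562/ADM was derived from it by stepwise selection in adriamycin (ADM), an anthracycline, and was kept in 1000 ng/mL of the drug. Small RNA was sequenced once from each line, so the comparison is between 2 libraries, each from 1 culture of 1 line, and selection, drug and library cannot be told apart. Whether K562/ADM was 1 clone was not stated.

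MiR-99, let-7 and miR-125 genes stand together in 3 related clusters of the human genome. The miR-125 genes are the vertebrate counterparts of lin-4, the regulator of developmental timing in Caenorhabditis elegans, and let-7 was found in the same pathway of that worm. MiR-99a, miR-99b and miR-100 are known to repress MTOR, a kinase that controls growth. MiR-125a and miR-125b act in blood stem cells, and raised miR-125b, miR-99a and miR-100 have been linked to acute leukemias and to vincristine resistance in them.

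The clusters differ in length. On GRCh37 the chromosome 19 cluster holds MIR99B (52195865 to 52195934), MIRLET7E (52196039 to 52196117) and MIR125A (52196507 to 52196592) on the plus strand, within 0.728 kb. These hairpins lie in introns of both SPACA6 transcripts that span them. The chromosome 21 cluster holds MIR99A (17911409 to 17911489), MIRLET7C (17912143 to 17912236) and MIR125B2 (17962557 to 17962645) on the plus strand, over 51.2 kb of the lncRNA gene MIR99AHG. MIR99A is intronic in all 128 transcripts that span it, MIRLET7C touches an exon in 3 of 128, and MIR125B2 in 1 of 126. The chromosome 11 cluster, in introns of the lncRNA gene MIR100HG on the minus strand, holds MIR125B1 (121970465 to 121970552), MIRLET7A2 (122017229 to 122017301) and MIR100 (122022937 to 122023016), over 52.6 kb.

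The mature sequences show which members can be told apart by their reads. They are from RefSeq (GRCh38.p14), where all 8 names were matched. The older names miR-99b and miR-99b* correspond to its 5p and 3p strands, and likewise for the others. Capitals mark the seed, bases 2 to 8, which pairs with the target mRNA.
miR-99b: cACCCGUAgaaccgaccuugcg
miR-99a: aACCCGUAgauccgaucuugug
miR-125a-5p: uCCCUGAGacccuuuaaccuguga
miR-125b: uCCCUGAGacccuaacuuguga
miR-99b*: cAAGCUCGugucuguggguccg
miR-99a*: cAAGCUCGcuucuaugggucug
miR-125a-3p: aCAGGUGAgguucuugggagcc
miR-125b-2*: uCACAAGUcaggcucuugggac

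MiR-99a and miR-99b share a seed and differ at 4 of 22 positions, counted from the 5' end, namely A1C, U11A, U16C and U21C, with the base of miR-99a given first. MiR-99a differs from miR-100 at 1 position, U16A, so that reads of these paralogs could be exchanged where a mismatch is allowed in mapping, and the reads named miR-99a are uncertain in this respect. MiR-125a-5p and miR-125b share their seed and their first 13 bases, and aligned with 21 identical bases, 1 mismatch and 2 gap positions. MIR125B1 and MIR125B2 give the same mature miR-125b, which therefore cannot be placed on chromosome 11 or 21 and was kept out of both locus sums. The passenger strands of MIR99A and MIR99B also share a seed (AAGCUCG), whereas those of MIR125A and MIR125B2 do not (CAGGUGA and CACAAGU).

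The values deposited are read counts divided by a size factor of the library. Whole reads were recovered from them and came to 6895193 in K562/ADM and 7677738 in K562. A single name, miR-378, made up 53.1% of all reads from K562/ADM and 50.6% of those from K562. A count of 0 allows up to 3 reads, which is 3.32 scaled reads in K562/ADM and 2.71 in K562. Each ratio below is K562/ADM over K562 after scaling by size factors and is given with an exact 95% interval of counting error (Clopper-Pearson). Noise between libraries is not covered by these intervals, since there was no replicate, and no p-value was computed. The 3 blood cell markers (miR-142-3p, miR-142-5p and miR-223) summed to 573571 scaled reads in K562/ADM and 328735 in K562, nearly all from miR-142-3p, and miR-223 alone was the lower in K562/ADM, with a ratio of 0.891. The 3 erythroid markers (miR-144, miR-451 and miR-486-5p) summed to 40235 scaled reads in K562/ADM and 46770 in K562, a ratio of 0.860 (0.849 to 0.872). Of these, miR-144 was the higher in K562/ADM, with a ratio of 1.37, while miR-451 had 0.793 and miR-486-5p 0.810.

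Among the names analysed here, which do not include miR-100, the chromosome 19 cluster held nearly all reads in both libraries. The 8 names together had 4625 reads in K562/ADM and 3351 in K562, which is 0.0671% and 0.0436% of the reads of these libraries. Of these family reads, the 4 names of chromosome 19 took 99.3% in K562/ADM (95% interval 99.0 to 99.5, Clopper-Pearson) and 98.7% in K562 (98.3 to 99.1). The 3 names placed on chromosome 21 took 0.303% in K562/ADM (0.166 to 0.507) and 0.955% in K562 (0.654 to 1.35). MiR-99a, whose reads could include some of miR-100, gave 13 of these 14 reads in K562/ADM and 24 of 32 in K562. MiR-125b, from either of the other clusters, took 0.368% (0.214 to 0.588) in K562/ADM and 0.328% (0.164 to 0.587) in K562. The interval of the chromosome 21 share in K562/ADM thus lay below that in K562, whereas the intervals for miR-125b overlapped.

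MiR-99b was the most abundant member. It had 3799 reads in K562/ADM (rank 64 of the names) and 2470 reads in K562 (rank 87). On the scale of the deposited values these are 4204 scaled reads in K562/ADM and 2232 in K562, a ratio of 1.88 (95% interval 1.79 to 1.98). The K562/ADM value was the higher, and the whole interval lay above 1 and below 2-fold. MiR-99b alone made up 82.1% of the family reads in K562/ADM (81.0 to 83.2) and 73.7% in K562 (72.2 to 75.2).

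Its paralog miR-99a, with the same seed, was scarce. MiR-99a had 13 reads in K562/ADM and 24 in K562, a ratio of 0.663 (0.310 to 1.36) whose interval held 1. Reads of miR-99b outnumbered those of miR-99a 292 to 1 in K562/ADM and 103 to 1 in K562. The ratio of miR-99b was 2.84 times that of miR-99a (1.39 to 6.08, exact conditional interval), so that these paralogs differed in their ratio beyond counting error. MiR-99b provided 99.7% of the reads counted with the miR-99 seed in K562/ADM (99.4 to 99.8) and 99.0% in K562 (98.6 to 99.4). The reads of this seed therefore had nearly the ratio of miR-99b, at 1.87 (1.78 to 1.97).

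MiR-125a-5p was present at a lower level. It had 337 reads in K562/ADM and 353 in K562, or 373 scaled reads in K562/ADM and 319 in K562, a ratio of 1.17 (1.004 to 1.36). The interval barely left out 1, and it held 1 under total counts and 3 further scalings given later. MiR-125b had 17 reads in K562/ADM and 11 in K562, a ratio of 1.89 (0.836 to 4.47) that cannot be told from 1 at this depth. MiR-125a-5p outnumbered it 19.8 to 1 in K562/ADM and 32.1 to 1 in K562, and the ratios of the pair did not differ beyond counting error (miR-125b over miR-125a-5p 1.62, interval 0.703 to 3.88). All reads of the miR-125 seed together, 354 in K562/ADM and 364 in K562, had a ratio of 1.19 (1.03 to 1.38), whose interval held 1 under the same 4 scalings as that of miR-125a-5p. The ratio of the miR-99 seed was 1.57 times that of the miR-125 seed (1.34 to 1.84).

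**Figure D1:**
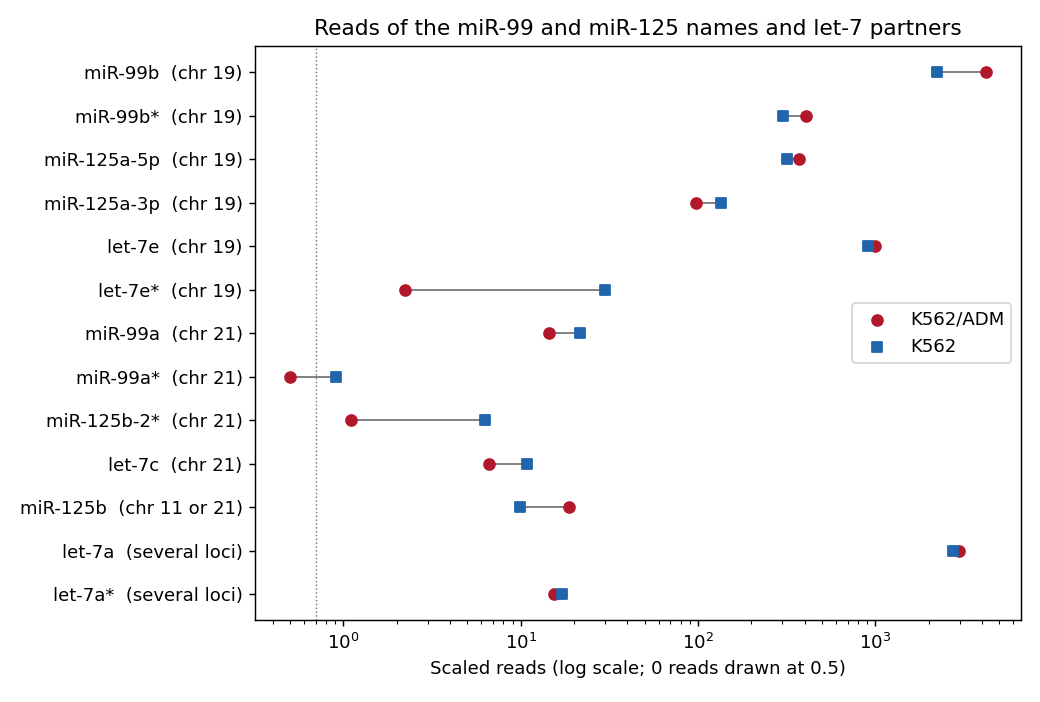
Scaled reads (x axis, log scale, 0 reads drawn at 0.5 left of the dotted line) of each family name and let-7 partner (rows, with the chromosome that gives it), in K562/ADM (red circles) and K562 (blue squares). MiR-99b stands at 4204 in K562/ADM and 2232 in K562, while miR-99a, miR-125b, miR-125b-2* and miR-99a* stay at or below 21.7 in both libraries.

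The order of levels was nearly the same in both libraries. In K562/ADM it ran from miR-99b over miR-99b*, miR-125a-5p, miR-125a-3p, miR-125b and miR-99a to miR-125b-2* and miR-99a*. In K562 miR-125a-5p stood before miR-99b*, and miR-99a before miR-125b. MiR-99b* and miR-125a-5p did not differ beyond counting error in either library. In K562/ADM miR-125b held 56.7% of its reads and those of miR-99a together (37.4 to 74.5), which is within counting error of an even split, while in K562 miR-99a held 68.6% of them (50.7 to 83.1) and exceeded miR-125b. The change of this order was itself within counting error, since the ratio of miR-125b over that of miR-99a was 2.85 (0.924 to 8.92). These levels are reads of mature miRs of similar length, and preferences of the adapters for particular ends were not measured.

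Each passenger strand of MIR99B and MIR125A had a lower ratio than its guide. MiR-99b* had 370 reads in K562/ADM and 336 in K562, a ratio of 1.35 (1.16 to 1.57), and miR-99b exceeded it in ratio 1.40 times (1.19 to 1.64). MiR-125a-3p had 88 reads in K562/ADM and 149 in K562, a ratio of 0.723 (0.549 to 0.948). It was the only member whose interval lay below 1, which did not hold under upper-quartile scaling, and the ratio of miR-125a-5p was 1.62 times its own (1.18 to 2.22). Within the hairpin, the minor strand took 8.88% of the MIR99B reads in K562/ADM (8.03 to 9.78) and 12.0% in K562 (10.8 to 13.2). The minor strand of MIR125A took 20.7% in K562/ADM (17.0 to 24.9) and 29.7% in K562 (25.7 to 33.9). For each of these hairpins the intervals of the 2 libraries did not overlap, and the minor strand had the smaller share in K562/ADM. The same held for 32.5% of the 77 other hairpins outside 14q32, a large imprinted miR cluster on chromosome 14, that had at least 50 reads for each arm, and 18.2% had the larger share in K562/ADM without overlap. Those 77 are stems with exactly 2 names, with gene copies of a stem taken as 1, and their reads were counted over both libraries together. The shares of the minor strands do not depend on the scaling.

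On chromosome 21 the passenger strands had hardly any reads. MiR-99a* had 0 reads in K562/ADM and 1 in K562, and no fold can be given. MiR-125b-2* had 1 read in K562/ADM and 7 in K562, a ratio of 0.175 (0.00388 to 1.36). Since the authors left out sequences seen once before mapping, values this low also depend on that step, whose effect was not tested.

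The middle hairpin of each cluster is a let-7 gene, which allows the neighbours to be compared. Let-7e, between MIR99B and MIR125A, had 904 reads in K562/ADM and 1010 in K562, a ratio of 1.10 (1.0009 to 1.20) that fell below 1 under total counts. The ratio of miR-99b was 1.72 times that of let-7e (1.55 to 1.91) and 1.61 times that of miR-125a-5p (1.37 to 1.89). The guides of MIR125A and MIRLET7E did not differ beyond counting error, at 1.07 (0.893 to 1.27). Thus miR-99b stood apart from the other guides of its own cluster. These differences between names in the same libraries do not change with the scaling. Reads of let-7a outnumbered those of let-7e 2.98 to 1 in K562/ADM and 3.03 to 1 in K562. Whether some reads named let-7e came from let-7a genes elsewhere was not tested.

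The passenger strand of the middle hairpin differed most. Let-7e* had 2 reads in K562/ADM and 33 in K562, 13.5-fold lower in K562/ADM (3.45 to 116), and it took 0.221% of the MIRLET7E reads in K562/ADM (0.0267 to 0.795) and 3.16% in K562 (2.19 to 4.41). The intervals did not overlap here either, as in 32.5% of the other hairpins given above, though the reads of let-7e* were fewer than the 50 asked of those. The ratio of let-7e to let-7e* differed between the libraries 14.8-fold (3.76 to 127). Both folds rest on 2 reads in K562/ADM, fewer than the 3 that a count of 0 allows. Values this low also depend on the omission of sequences seen once, whose effect was not tested. The strands of this hairpin are shown because their ratio differed most, with the seed in capitals.
let-7e: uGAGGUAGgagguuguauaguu
let-7e*: cUAUACGGccuccuagcuuucc

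**Figure D2:**
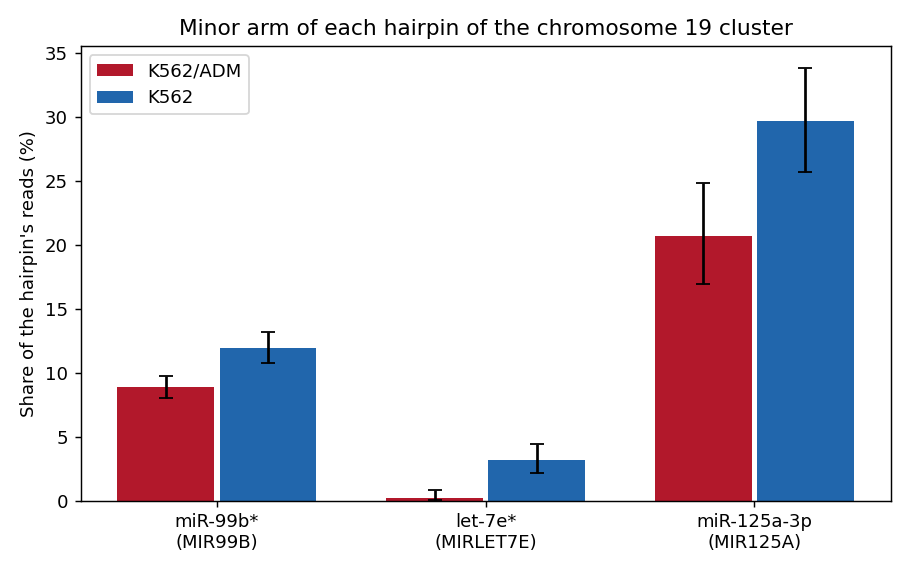
Share of the hairpin's reads (y axis, %) held by the minor strand of MIR99B, MIRLET7E and MIR125A in K562/ADM (red, left) and K562 (blue, right), with 95% Clopper-Pearson intervals of counting error as bars. Each red bar is lower than its blue neighbour, at 8.88% against 12.0%, 0.221% against 3.16% and 20.7% against 29.7%.

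Let-7c, the partner on chromosome 21, had 6 reads in K562/ADM and 12 in K562, a ratio of 0.612 (0.189 to 1.76). Let-7a, of which MIRLET7A2 on chromosome 11 is 1 source among several, had 2698 reads in K562/ADM and 3056 in K562, a ratio of 1.08 (1.03 to 1.14). Let-7a* had 14 reads in K562/ADM and 19 in K562, with a ratio of 0.902 (0.419 to 1.90). Of the 5 let-7 partner names with reads, let-7e* alone differed by 2-fold with an interval that left out 1, on 2 reads in K562/ADM.

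The ratios of the chromosome 19 and chromosome 21 loci differed. The 4 names of chromosome 19 had 4594 reads in K562/ADM and 3308 in K562, a ratio of 1.70 (1.63 to 1.78). MiR-99b gave 3799 of these reads in K562/ADM and 2470 in K562, so the sum largely restates its ratio. The other names of this locus had lower ratios, 1.35 for miR-99b*, 1.17 for miR-125a-5p and 0.723 for miR-125a-3p. With let-7e and let-7e* added, the ratio of the chromosome 19 locus was 1.55 (1.49 to 1.61). The 3 names of chromosome 21 had 14 reads in K562/ADM and 32 in K562, a ratio of 0.536 (0.264 to 1.03), whose interval held 1. Most of these were reads of miR-99a, so their place on chromosome 21 is uncertain as far as miR-100 reads were counted among them. With let-7c added, the chromosome 21 reads were 20 in K562/ADM and 44 in K562 and the ratio was 0.557 (0.311 to 0.965), still within a factor of 2. The ratio of the chromosome 19 locus was 3.17 times that of the chromosome 21 locus (1.64 to 6.45), beyond counting error and whatever the scaling. Of the 12 pairs of names or loci compared in this way, 9 had an interval that left out 1. Many of these pairs share reads, those of miR-99b above all, so they are not separate results. The share among other pairs of names in the table was not computed, so this count says nothing particular about the family. The chromosome 11 locus could not be compared, as no name that it alone gives was analysed here. In total RNA from a culture, fewer cells with a miR and less of it per cell cannot be told apart.

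**Figure D3:**
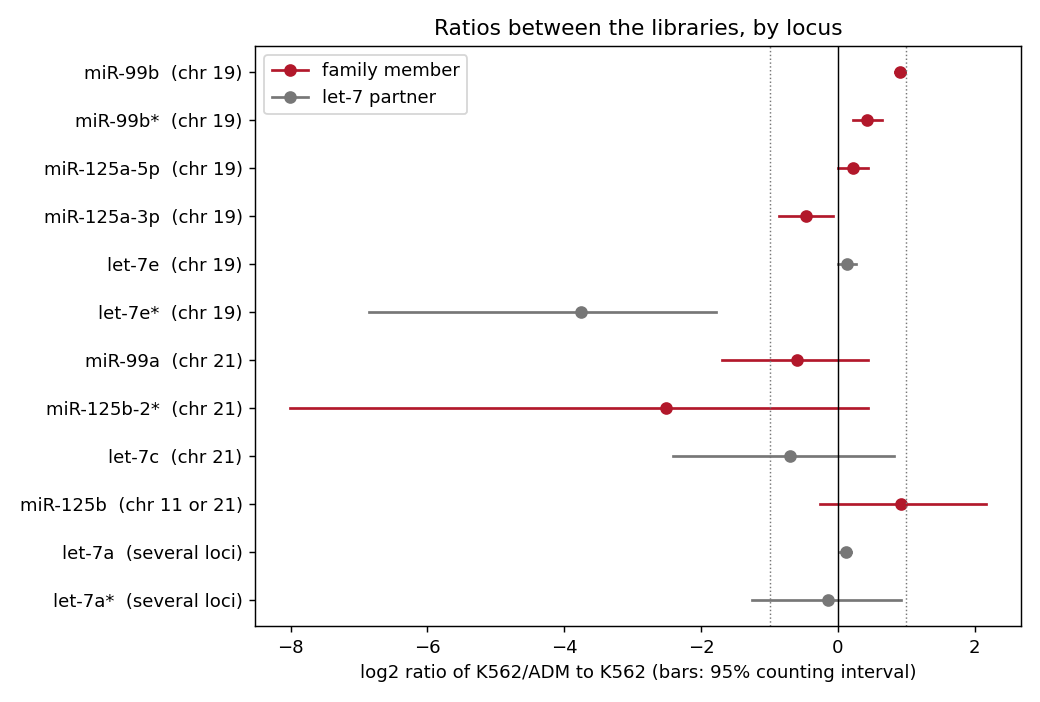
Log2 ratio of K562/ADM to K562 (x axis) for each family name (red) and let-7 partner (grey) with reads in both libraries (rows, with the chromosome). Bars show the exact 95% interval of counting error, the solid line marks equal levels and the dotted lines mark 2-fold. MiR-99b lies at 0.91 just inside the 2-fold line, and the chromosome 21 names lie left of equality with intervals that cross it.

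A name was called higher or lower in K562/ADM where it differed by 2-fold or more with an interval that did not hold 1. Of the 8 family names 0 were called higher, 0 were called lower and 8 were not called. Over all 934 names 11.1% were called higher and 15.6% were called lower by this rule. By the interval alone, 3 members were higher (miR-99b, miR-99b* and miR-125a-5p) and 1 was lower (miR-125a-3p), against 19.9% of all names higher and 23.9% lower. The 6 members with at least 10 reads and with reads in both libraries had a median log2 ratio of 0.33, against -0.05 for the 579 such names of the table. With so few members these counts say little about the family as a whole.

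The size of the fold, but not the order of the members, depended on how the libraries were scaled. Under total counts, total counts without miR-378, TMM, the median of ratios without the names of 14q32 and miR-425 as the only reference, the log2 ratio of miR-99b stayed between 0.78 and 0.92. Upper-quartile scaling raised every log2 ratio by 0.74, so that miR-99b reached 1.66, miR-99b* 1.17 and miR-125b 1.66, and these 3 were then called higher. The same scaling called 23.9% of all names higher and 10.2% lower, which made 70.1% of the calls higher ones, compared with 41.6% under the size factors. MiR-125a-3p and miR-99a passed to the other side of equality there, at 0.28 and 0.15.

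**Figure D4:**
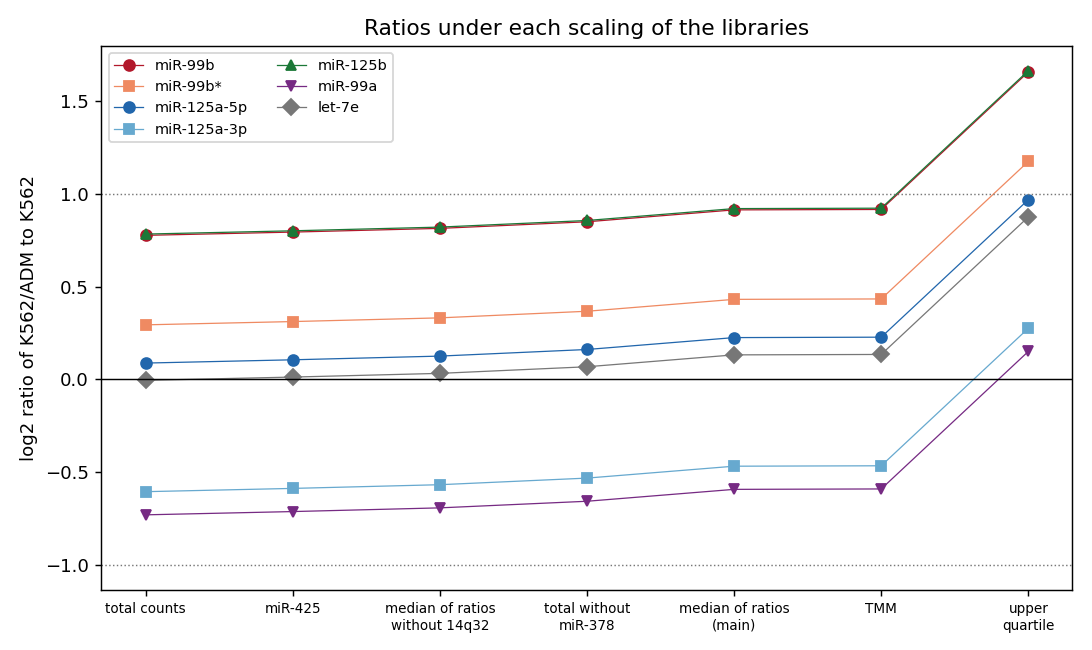
K562/ADM over K562 as a log2 ratio (y axis) for 6 family names and let-7e under each scaling of the libraries (x axis, lines join values of 1 name only to guide the eye). Equal levels are marked by the solid line and 2-fold by the dotted lines. The names keep their distances, and miR-99b passes the 2-fold line under upper-quartile scaling alone, at 1.66.

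The summed levels of mesenchymal, neural and muscle markers were also higher in K562/ADM, while those of epithelial and liver markers had intervals that held 1. Of the 5 mesenchymal markers, 4 had rows, with a summed level of 8294 scaled reads in K562/ADM and 2936 in K562. MiR-143 had a ratio of 7.68 and miR-145 of 2.50, while miR-199a-5p and miR-214 had 2 and 3 reads in K562/ADM and 0 in K562. The 3 neural markers summed to 19793 scaled reads in K562/ADM and 7208 in K562, nearly all from miR-9, and miR-124 and miR-137 had at most 2 reads in either library. The 6 epithelial markers summed to 904 in K562/ADM and 865 in K562, mostly from miR-141 (822 and 807 scaled reads). MiR-200c had 63 reads in K562/ADM and 58 in K562, and miR-200a had 9 and 2. MiR-200b and miR-429 had at most 2 reads in either library, and miR-205 had 0 in K562/ADM and 1 in K562. The single liver marker, miR-122, had 4 reads in each library. The 3 muscle markers with rows summed to 26.6 scaled reads in K562/ADM and 9.04 in K562, nearly all from miR-1 (22 and 10 reads). MiR-133a and miR-206 had 1 read each in K562/ADM and 0 in K562. The part of these cell types in the ratio of miR-99b was not tested.

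The names most like miR-99b in level over the 2 libraries were found by the distance of log2(scaled reads + 1), which needs only 2 values a name. They were miR-769-5p (3592 reads in K562/ADM and 3055 in K562, distance 0.32), miR-15a (4228 and 3129 reads, distance 0.37) and miR-33a (3458 and 3391 reads, distance 0.48). Their ratios were 1.44, 1.65 and 1.25, each smaller than that of miR-99b. The names were chosen by the same values that make these ratios, so this is no separate result. Over all 934 names 11.1% were called higher at 2-fold or more, which is above the 1.88 of miR-99b. RefSeq lists 3 mature miRs with the miR-99 seed and 3 with the miR-125 seed, of which 2 each were analysed here, all of them members.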

How the data were processed

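Total RNA was enriched for small RNA, and 1 library each of K562/ADM and K562 was sequenced by the authors on an Illumina Genome Analyzer IIx. The authors collapsed the reads, omitted sequences seen once, and mapped to miRBase 16 with Bowtie in miRanalyzer at default parameters. CASAVA 1.7.0 and the build hg18 are also named in the submitters' processing notes. The deposited signal is the count divided by a DESeq size factor. The deposited fold ratio, its log2 and the p-values are the authors' own comparison and were not used.

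All values (100%) were whole multiples of the smallest value above 0 in their column within 0.001, so whole reads were recovered. The recomputed size factors matched the deposited ones. No count model could be fitted with 1 library a line. Ratios of summed reads used Clopper-Pearson intervals, and ratios between names used exact conditional odds ratios. Intervals and floors cover counting error only, as PCR reads are not independent molecules. Named are all members, their let-7 partners, names sharing a seed and the 3 names nearest to the top member. The members and lists were chosen with earlier results of these data known. GRCh37 positions are from GENCODE, since the table holds no coordinates. The interval code was tested on simulated data. Software was scipy 1.17.1, numpy 2.4.6, pandas 2.3.3, Biopython 1.88 and matplotlib 3.10.9 in Python 3.11.15, and edgeR 4.0.16 in R 4.3.3 for TMM and upper-quartile factors.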

Additional observations from a re-analysis of the deposited data

How the results depend on the processing

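Of 84 alternative values for single names, 74 kept their direction and their side of the limit, 7 changed direction and 3 became called. Upper-quartile scaling brought log2 ratios to the other side of equality for miR-125a-3p (0.28), miR-99a (0.15), let-7c (0.035) and let-7a* (0.59), total counts for let-7e (-0.0049) and let-7a (-0.025), and miR-425 as reference for let-7a (-0.0070). Upper-quartile scaling put the chromosome 19 locus at 1.51 and the miR-99 seed at 1.65, both called higher. The chromosome 21 locus was called lower under total counts (-1.04), under miR-425 (-1.02) and, at the 2-fold limit itself, under the median of ratios without 14q32 (-1). The number of members called higher was 3 under upper-quartile scaling and 3 by the interval alone. The number called lower was 1 by the interval alone and 2 by fold alone, where 29.4% of all names were lower. These are miR-125b-2* and miR-99a*, which had 0 reads in K562/ADM against 1 in K562 and has no usable fold. Over all miR reads in place of family reads, the chromosome 19 share was 0.0666% in K562/ADM and 0.0431% in K562. Depth limits miR-99a, miR-125b and the chromosome 21 strands, which had at most 24 reads in either library. No paired analysis was possible because each line had 1 library, and for the same reason no library could be left out.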

Other observations

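The arms and neighbours of the family can be set beside those of other hairpins, in comparisons chosen after the values had been seen and given as descriptions only. Outside 14q32, 77 other hairpins, counted as stems in the way given above, had at least 50 reads for each arm, and the less abundant arm had the lower ratio in 47 of them. The log2 difference between the arms had a median of -0.18 (quartiles -0.68 and 0.32) in these hairpins. It was -0.48 for miR-99b* against miR-99b, with 28 of the 77 lower still, and -0.69 for miR-125a-3p against miR-125a-5p, with 19 of the 77 lower still.

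Neighbours were sought only among hairpins whose stem has 1 gene, so hairpins with several copies were passed over. Outside 14q32, 26 other such pairs lay within 10 kb on 1 strand, each hairpin with at least 50 reads over both libraries together. The log2 ratios of their main arms differed by a median of 0.54 (quartiles 0.34 and 1.05). MIR99B and MIRLET7E, 104 bases apart, differed by 0.78, and 9 of the 26 pairs differed by more. MIRLET7E and MIR125A, 389 bases apart, differed by 0.09, and 24 of the 26 differed by more. The values of MIRLET7E rest on the reads named let-7e, whose exchange with let-7a was not tested.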
